A study of Bos taurus with 15 samples.

Results

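The genes described here are 4 of the 24616 Ensembl identifiers in the deposited table: ENSBTAG00000025035 (PRLR, the prolactin receptor), ENSBTAG00000001335 (GHR, the growth hormone receptor), ENSBTAG00000009496 (STAT5A) and ENSBTAG00000010125 (STAT5B). They were chosen by identifier for their place in one signaling pathway, and their symbols come with that choice. The table holds identifiers only, and 0 of them could be matched to the gene table used here, so the symbols could not be checked against it. All 15 libraries were used, from needle biopsies of the mammary gland of 4 Holstein cows, not pregnant and in their second lactation. Each cow gave a biopsy immediately before (0 h) and at 12 and 24 h after being given 40 mg of DEX (dexamethasone, a man-made glucocorticoid) into muscle, and cows 2, 3 and 4 gave another at 72 h. Every cow received DEX, and ampicillin over the days of biopsy, so the 0 h libraries are the only ones from before DEX and there was no group without it. Biopsies moved to another gland (QTR) of the udder at each time point, in the same order in all cows, so time since DEX and the gland sampled cannot be told apart. DEX was given in the evening, right after the 0 h biopsy, so only the 12 h biopsies fell in the morning. Time of day therefore cannot be told apart from the 12 h time point either. Cow 1 has no 72 h library and is taken here as the cow withdrawn for illness. It is given beside cows 2 to 4, on which the tests rest. The libraries held from 1804120 reads (cow 4 at 0 h) to 6228132 reads (cow 2 at 24 h) counted on genes.

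Prolactin and growth hormone are pituitary hormones that act through PRLR and GHR, receptors of the same cytokine receptor family. When either hormone binds, the kinase JAK2 on the inner side of the receptor phosphorylates STAT5A and STAT5B, which then pair, enter the nucleus and bind DNA. In the lactating mammary epithelium this pathway, together with the glucocorticoid receptor, is known for driving milk protein genes. Prolactin is the dominant signal for lactation in rodents, while growth hormone is known for raising milk yield in ruminants, in large part through organs other than the udder. STAT5A and STAT5B are closely related proteins from neighboring genes, with 0 protein-coding genes between them in the ARS-UCD2.0 RefSeq annotation.

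Few reads were counted on any of these genes. PRLR, GHR, STAT5A and STAT5B together took 185 of the 66674540 reads in the 15 libraries, which is 2.775 CPM (reads for every 1000000 counted). STAT5B, the form best known from growth hormone signaling in the liver, had 128 of them and at least 1 read in 15 of 15 libraries. STAT5A, known in lactation research as the mammary gland factor, had 23 reads in 9 libraries. PRLR had 21 reads in 11 libraries and GHR had 13 reads in 7. Of the 45 values of PRLR, GHR and STAT5A, 18 were 0 and 4 were above the 3 reads taken here as the limit of detection for a library, each of them at 4 reads. That limit was worth from 0.464 normalized counts in the library of cow 3 at 72 h to 1.74 in that of cow 4 at 0 h, which had the fewest reads. Normalized counts are CPM after the authors' scaling of each library. Since a transcript gives reads at its end only, whatever its length, levels of different genes are set side by side on this scale without a correction for length. Whether the gene models used for counting reach the ends of these transcripts was not tested, and a model that stops short would lower the level and the rank of its gene.

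Over the 15 libraries the order of the levels was STAT5B, at a mean of 1.79 normalized counts (SD 1.04, n = 15 libraries), then STAT5A at 0.331 (SD 0.336), PRLR at 0.308 (SD 0.267) and GHR at 0.167 (SD 0.236). STAT5B was above the other genes in 14 libraries and level with PRLR in 1, that of cow 2 at 72 h, where each had 1 read. The gaps between STAT5A and PRLR and between PRLR and GHR were within their spread between libraries, while the gap between STAT5B and STAT5A was larger than the SD of either. Among the 13904 genes with a read in some library, the median gene had a mean of 1.343 normalized counts. STAT5B ranked 6435, with 53.7% of those genes below it, STAT5A ranked 9402, PRLR ranked 9494 and GHR ranked 10344, with 25.6% below it. All 4 genes are thus near or below the middle of the detected genes, as the histogram of levels shows. Their known place in lactating epithelium is thus not matched by a high rank or a high share of the reads here. The most abundant gene alone averaged 2.711e+05 normalized counts. A low level on this scale is a low share of the reads and not a measure of the amount per cell. Reads outside the gene models were not analysed here, and the part of the gene models and of the unchecked symbols in the low counts and in the order of the genes was not tested. Markers of the mammary epithelium and of other cell types could not be looked up by identifier, so the labelled tissue was not checked against them.

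**Figure D1:**
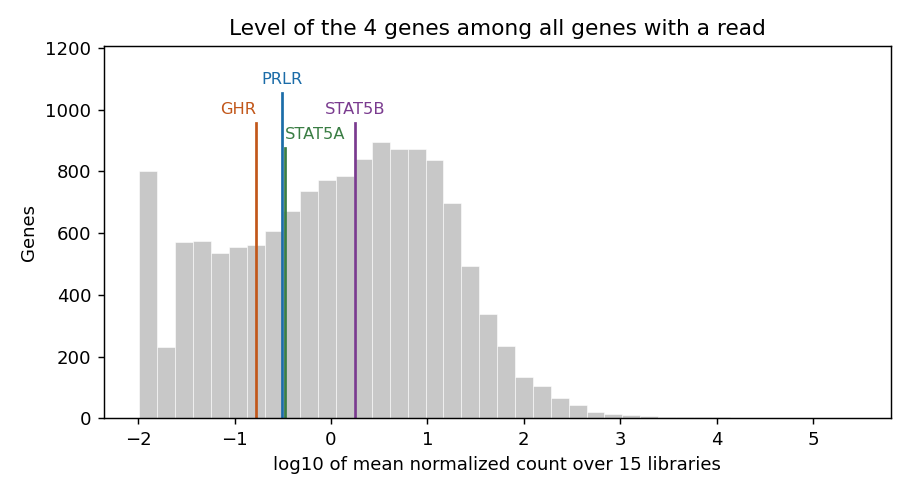
Histogram of the mean normalized count over 15 libraries, on a log10 axis, for the 13904 genes with a read, with a vertical line at each of PRLR, GHR, STAT5A and STAT5B. STAT5B sits close to the median of 1.343, and GHR is the lowest of the 4, with 25.6% of genes below it.

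PRLR, the receptor through which prolactin acts on the mammary epithelium, had more reads at 12 h than at 0 h in each of cows 2, 3 and 4, and the same 1 read in cow 1. No change of PRLR passed the test at any time point. At 0 h it had 1 read in cow 1 (0.256 normalized counts), 1 read in cow 2 (0.219) and 0 reads in cows 3 and 4. At 12 h it had 1 read in cow 1 (0.184), 3 reads in cow 2 (0.661), 4 reads in cow 3 (0.821) and 3 reads in cow 4 (0.601). The listed 0 h and 12 h values of cows 2 to 4 did not overlap, while the 12 h value of cow 1 lay below its own at 0 h. The 0 reads of cows 3 and 4 at 0 h allow up to 0.902 and 1.74 normalized counts, above their values at 12 h, so a difference within either of these cows was not detectable at this depth. At 24 h PRLR had 3 reads in cow 1 (0.503), 0 in cow 2, 1 in cow 3 (0.213) and 2 in cow 4 (0.539). At 72 h it had 1 read in cow 2 (0.408), 0 in cow 3 and 1 in cow 4 (0.209). Within cow 2 the gene thus went from 3 reads at 12 h to 0 at 24 h, while in cow 1 its highest value was at 24 h.

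PRLR averaged 0.0732 ± 0.127 normalized counts before DEX and 0.694 ± 0.113 at 12 h in cows 2 to 4 (mean ± SD, n = 3), followed by 0.251 ± 0.272 at 24 h and 0.206 ± 0.204 at 72 h. Per cow, the difference between 12 h and 0 h on the log2(normalized count + 0.5) scale for cows 1 to 4 was -0.14, 0.69, 1.40 and 1.14, negative in cow 1 alone. The fit across all genes gave it a log2 fold change of 1.08 at 12 h (SE 0.33, 95% interval 0.39 to 1.77), with an unadjusted p of 0.00432 and an adjusted p of 0.0837 in limma. Fold changes are on that scale, which tends to understate the change of genes this low, unless another constant, limma-voom, edgeR or DESeq2 is named. The size depends on that added constant, with 2.42 for a constant of 0.1 and 0.38 for a constant of 2, and it was 2.50 in edgeR on the reads (adjusted p = 0.672) and 0.77 in limma when cow 1 was added (adjusted p = 0.154). Summed over cows 2 to 4, PRLR had 10 reads at 12 h against 1 at 0 h, a ratio of 6.67 per effective read (the library total after scaling) with a 95% interval of 0.949 to 289. Over all 4 cows the ratio was 3.75 (0.818 to 34.8), from 11 reads against 2. These exact intervals cover counting error only, and as the reads carry no molecular identifiers they may be copies of the same molecule. In bulk tissue, fewer cells of a type and less RNA per cell cannot be told apart.

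At 24 h the log2 fold change of PRLR against 0 h was 0.35 (95% interval -0.34 to 1.04, adjusted p = 0.713 in limma), and at 72 h it was 0.28 (-0.41 to 0.97, adjusted p = 0.871). Leaving out cow 2 gave 0.78 at 24 h, and leaving out cow 4 gave -0.01. From 12 h to 24 h it was -0.73 (adjusted p = 0.4 in limma) and from 12 h to 72 h it was -0.80 (adjusted p = 0.267). Both of these use the same 12 h libraries, in which PRLR had between 3 and 4 reads in each of cows 2 to 4. With cow 1 added, limma gave -0.41 (unadjusted p = 0.18) and -0.60 (unadjusted p = 0.0759). Leaving out cow 3 gave -0.65 and -0.50, and limma-voom gave -1.47 and -1.44. The listed values of PRLR were lower at 24 h than at 12 h in 3 of 3 cows, or 3 of 4 with cow 1, and lower at 72 h than at 12 h in 3 of 3. The limit of 3 reads lay above the 12 h value for cow 4 at 24 h (0.809) and for cows 2 and 4 at 72 h (1.22 and 0.627). The direction in these cows is thus not shown. The plot of normalized counts by library shows the 12 h values of cows 2 to 4 close together and the other time points spread down to 0.

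**Figure D2:**
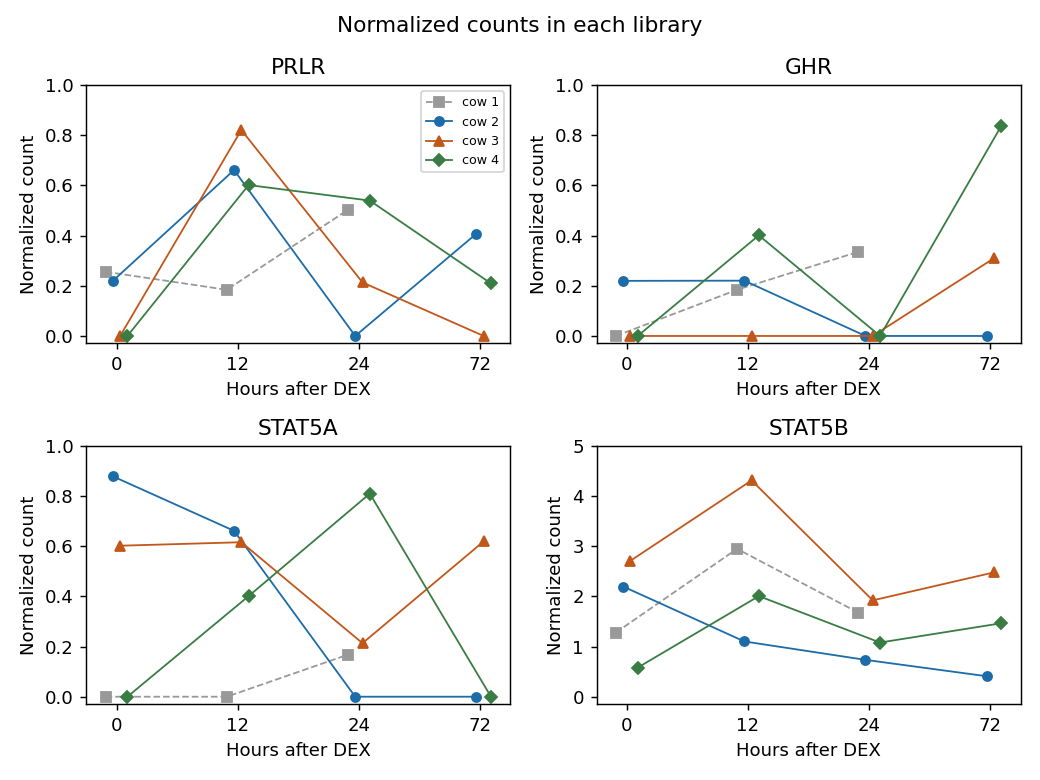
Normalized count of each gene (vertical axis, which reaches 5 for STAT5B and 1 for the others) at 0, 12, 24 and 72 h after DEX (equally spaced, not to scale), with 1 point per library and a line for each cow, dashed for cow 1. PRLR at 12 h lies between 0.601 and 0.821 in cows 2 to 4, and STAT5B is lower at 24 h than at 12 h in 4 of 4 cows.

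GHR, which carries the signal of growth hormone and is best known for driving IGF1 in the liver, had the fewest reads, and no change of it passed the test. At 0 h it had 1 read, in cow 2 (0.219 normalized counts), and was at 0 in cows 1, 3 and 4. At 12 h it had 1 read in cow 1 (0.184), 1 in cow 2 (0.220), 0 in cow 3 and 2 in cow 4 (0.401). At 24 h it was at 0 in cows 2, 3 and 4, and had 2 reads in cow 1 (0.335). At 72 h it was at 0 in cow 2, with 2 reads in cow 3 (0.309) and 4 in cow 4 (0.836), its highest value. The time points overlapped in every comparison, because each of them included a library at 0. Over the 24 h libraries of cows 2 to 4 together, 0 reads gave a level of 0 CPM of effective reads, with an exact two-sided 95% Poisson interval up to 0.266 (3 reads there are worth 0.217), against 0.438 (0.161 to 0.953) from 6 reads at 72 h, of which 4 came from cow 4. The log2 fold change of GHR from 24 h to 72 h was 0.70 (95% interval 0.05 to 1.36), with an unadjusted p of 0.0375 and an adjusted p of 0.296 in limma. Without cow 4 it was 0.35, without cow 2 it was 1.06, and with cow 1 added it was 0.52 (adjusted p = 0.41 in limma). It was 1.75 for a constant of 0.1 and 0.24 for a constant of 2, and on the reads it was 1.87 in limma-voom (adjusted p = 0.166), 3.11 in DESeq2 and 3.89 in edgeR (adjusted p = 0.479). None of these is a bound, since cows 2 to 4 had 0 reads at 24 h. Against 0 h it was 0.28 at 12 h (95% interval -0.37 to 0.94), -0.18 at 24 h (-0.83 to 0.48) and 0.53 at 72 h (-0.13 to 1.19), with adjusted p in limma of 0.728, 0.887 and 0.789. Both the tool and single cows moved these values. On the reads, limma-voom, DESeq2 and edgeR gave -1.14, -1.58 and -2.24 at 24 h, and 0.72, 1.53 and 1.65 at 72 h. Leaving out cow 4 gave 0.00 at 12 h and 0.09 at 72 h, and leaving out cow 2 gave 0.00 at 24 h and 1.06 at 72 h.

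STAT5A, a transcription factor that binds the promoters of milk protein genes, was at 0 in 6 of the 15 libraries, and no change of it passed the test. At 0 h it had 4 reads in cow 2 (0.878 normalized counts), 2 in cow 3 (0.602) and 0 in cows 1 and 4. At 12 h it had 3 reads in cow 2 (0.661), 3 in cow 3 (0.615), 2 in cow 4 (0.401) and 0 in cow 1. At 24 h it had 1 read in cow 1 (0.168), 0 in cow 2, 1 in cow 3 (0.213) and 3 in cow 4 (0.809). At 72 h it had 4 reads in cow 3 (0.619) and 0 in cows 2 and 4. The listed values went from 0.878 at 0 h to 0 at 24 h in cow 2 and from 0 to 0.809 in cow 4. In the 0 h library of cow 4, 0 reads allow up to 1.74, so the direction in that cow is not shown. In cow 2 the 95% Poisson interval at 0 h (0.239 to 2.25) overlapped that of the 0 reads at 24 h (up to 0.677), so a fall is not shown there either. Against 0 h the log2 fold change was 0.21 at 12 h (95% interval -0.74 to 1.15, adjusted p = 0.905 in limma), -0.23 at 24 h (-1.18 to 0.71, adjusted p = 0.899) and -0.48 at 72 h (-1.42 to 0.46, adjusted p = 0.848). Summed over cows 2 to 4, the ratio per effective read at 12 h against 0 h was 0.889 (95% interval from counting error 0.271 to 3.11), from 8 reads against 6, so its direction was opposite to that of the fitted value. The fitted sign at 12 h turned when cow 4 was left out, to -0.11, and at 24 h and 72 h when cow 2 was left out, to 0.38 and 0.01. Without the 0 h library of cow 4, the library with the fewest reads, the values of STAT5A were -0.23, -0.67 and -0.92 at 12, 24 and 72 h. In the same order, limma-voom gave 0.15, -0.86 and -1.35, edgeR -0.05, -0.85 and -1.19, and DESeq2 0.02, -0.69 and -1.48. A constant of 0.1 gave 0.66, -0.42 and -1.08, and a constant of 2 gave 0.05, -0.09 and -0.17.

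STAT5B, which acts on many of the same sites as STAT5A, was the only one of these genes with a read in every library, from 1 (cow 4 at 0 h and cow 2 at 72 h) to 21 (cow 3 at 12 h). The listed values of STAT5B were lower at 24 h than at 12 h in 4 of 4 cows and lower at 72 h than at 12 h in 3 of 3. Neither change passed the test. At 0 h it had 1.28 normalized counts in cow 1, 2.19 in cow 2, 2.71 in cow 3 and 0.579 in cow 4. At 12 h it had 2.94 in cow 1, 1.10 in cow 2, 4.31 in cow 3 and 2.00 in cow 4, so that it was higher than at 0 h in cows 1, 3 and 4 and lower in cow 2. At 24 h it had 1.68 in cow 1, 0.734 in cow 2, 1.92 in cow 3 and 1.08 in cow 4. At 72 h it had 0.408 in cow 2, 2.48 in cow 3 and 1.46 in cow 4. Cow 3 had the highest value of the cows at each time point, and cow 2 went down at every step, from 10 reads at 0 h to 5, 4 and 1. All pairs of time points overlapped.

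STAT5B averaged 1.83 ± 1.11 normalized counts before DEX and 2.47 ± 1.65 at 12 h in cows 2 to 4 (mean ± SD, n = 3), followed by 1.24 ± 0.610 at 24 h and 1.45 ± 1.03 at 72 h. The ranges of mean ± SD overlapped at all time points. Between 12 h and 24 h the log2 difference of cows 1 to 4 was -0.66, -0.38, -0.99 and -0.67, negative in each. The fitted log2 fold change over this step was -0.68 (SE 0.57, 95% interval -1.89 to 0.53, adjusted p = 0.737 in limma), and from 12 h to 72 h it was -0.62 (-1.83 to 0.59, adjusted p = 0.72). Summed over 4 cows, STAT5B had 27 reads at 24 h against 52 at 12 h, a ratio per effective read of 0.520 with a 95% interval from counting error of 0.314 to 0.843. In cows 2 to 4 alone the ratio was 0.491 (0.259 to 0.897), from 17 reads against 36. Against 0 h the log2 fold change was 0.35 at 12 h (95% interval -0.86 to 1.56, adjusted p = 0.841 in limma), -0.33 at 24 h (-1.54 to 0.88, adjusted p = 0.882) and -0.27 at 72 h (-1.48 to 0.94, adjusted p = 0.967). These values moved both ways with single cows. Without cow 2 they were 0.90, 0.07 and 0.38 at 12, 24 and 72 h, and without cow 4 the value at 12 h was -0.08. Without the 0 h library of cow 4 alone, where 1 read was counted, they were -0.13, -0.81 and -0.75.

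**Figure D3:**
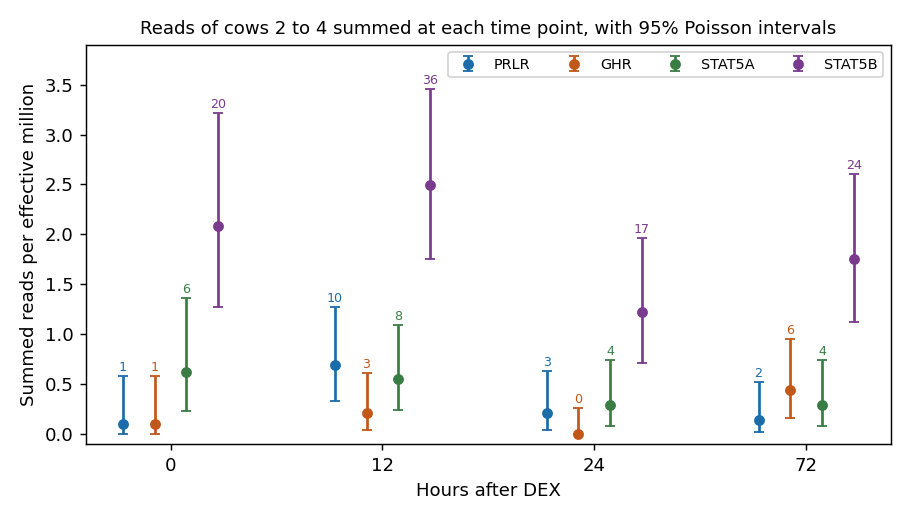
Reads of cows 2 to 4 summed at each time point and divided by the summed effective reads, as CPM (vertical axis), for PRLR, GHR, STAT5A and STAT5B, with the number of reads above each point and bars for the exact 95% Poisson interval, which covers counting error only. PRLR has 1, 10, 3 and 2 reads at 0, 12, 24 and 72 h, and GHR has 1, 3, 0 and 6.

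The relation between the members of each pair was followed within a library. A share of reads does not depend on how libraries are scaled, while a log2 ratio, taken after adding 0.5 to both normalized counts, does in part. STAT5A took 23 of the 151 reads of both STAT5 genes, or 15.2% (95% exact Clopper-Pearson interval 9.91 to 22.0, counting error only). In cows 2 to 4 its share was 23.1% at 0 h (8.97 to 43.6), 18.2% at 12 h (8.19 to 32.7), 19.0% at 24 h (5.45 to 41.9) and 14.3% at 72 h (4.03 to 32.7), so the intervals overlapped throughout. The log2 ratio of STAT5A to STAT5B averaged -1.21 ± 0.30 before DEX and then -1.35 ± 0.83, -1.11 ± 0.76 and -1.41 ± 0.56 at 12, 24 and 72 h (SD, n = 3). A two-sided exact permutation test of the time points within cows 2 to 4, over 13824 arrangements and with 0.00174 as the smallest p it can give, gave p = 0.936. STAT5A and STAT5B are near-identical over much of their coding sequence, while these reads come from transcript ends. How alike those ends are, and whether reads of either gene were lost or assigned to the other, was not tested. Their levels may thus be uncertain against each other. The log2 ratio of PRLR to GHR was 0.00 at 0 h, then 0.79 ± 0.56 at 12 h, 0.52 ± 0.53 at 24 h and -0.25 ± 0.97 at 72 h. At 0 h both genes had 1 read in cow 2 and 0 reads in cows 3 and 4, where the added constant alone sets the ratio. GHR also had 0 reads in cows 2 to 4 at 24 h. The ratio and its test thus rest in large part on that constant, and the test cannot show whether the ratio changed. The same exact permutation test gave p = 0.319 for this ratio, and after Benjamini-Hochberg adjustment over both ratios these permutation p were 0.638 for PRLR to GHR and 0.936 for STAT5A to STAT5B.

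No comparison of time points called any of these genes. At 12 h against 0 h, 0 of the 4 genes passed an adjusted p of 0.05 in limma, where 3.88% of the 13525 genes tested did, and 1 of 4 (PRLR) had an unadjusted p under 0.05, against 15.6% of all genes. The 0 h and 12 h values of cows 2 to 4 did not overlap for 1 of the 4 genes, again PRLR, and for 17.1% of all genes. At 24 h against 0 h, 0 of 4 passed, against 2.31% of all genes, 0 of 4 had an unadjusted p under 0.05, against 13.7%, and 0 of 4 did not overlap, against 15.1%. At 72 h against 0 h, 0 of 4 and 0% of all genes passed in limma, 0 of 4 had an unadjusted p under 0.05, against 6.88% (931 genes), and 0 of 4 did not overlap, against 7.95%. At 72 h edgeR called 55 of all genes, DESeq2 called 22, and limma with cow as a fixed block called 3.

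Between the later time points the picture was similar. From 12 h to 24 h, 0 of 4 passed in limma, against 0.702% of all genes (95 genes, or 234 with cow as a fixed block), and 1 of 4 (PRLR) did not overlap, against 15.8%. From 12 h to 72 h, 0 of 4 passed, against 3.62%, and 1 of 4 (PRLR) did not overlap, against 16.4%. From 24 h to 72 h, 0 of 4 passed, against 3.56%, and 0 of 4 did not overlap, against 16.5%. In limma 1 of 4 had an unadjusted p under 0.05 in each of these, PRLR in the comparisons with 12 h and GHR from 24 h to 72 h, against 11.4%, 14% and 14.7% of all genes. With cow 1 added, these unadjusted p in limma were 0.18, 0.0759 and 0.0861, above 0.05. By edgeR 0 of 4 passed in each of the 6 comparisons, and by edgeR and DESeq2 0 of 4 had an unadjusted p under 0.05. The shares of all genes under that unadjusted limit in these tools are not given here. Because of the low counts, DESeq2 gave no adjusted p for 4 of 4 genes at 24 h and 72 h against 0 h. The same held from 12 h to 24 h and from 24 h to 72 h, so no gene could pass there. It gave none for 3 of 4 at 12 h against 0 h and for 2 of 4 from 12 h to 72 h, and the genes left did not pass. Among all genes, edgeR called 907 at 12 h and 630 at 24 h against 0 h, and DESeq2 called 592 and 418. From 12 h to 24 h, from 12 h to 72 h and from 24 h to 72 h, edgeR called 538, 928 and 988, and DESeq2 called 315, 639 and 669. The plot of fitted changes shows the intervals of PRLR in the 3 comparisons with 12 h and of GHR from 24 h to 72 h on one side of 0 before adjustment.

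**Figure D4:**
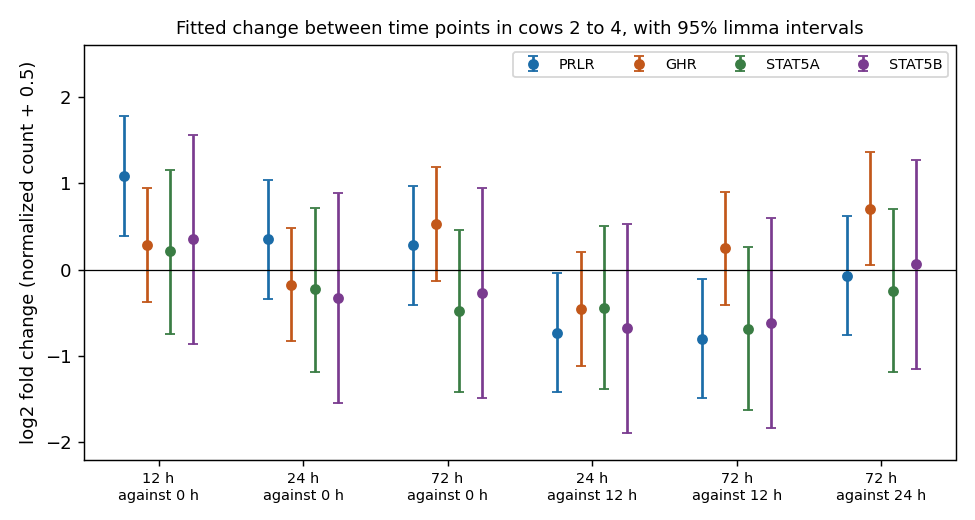
Fitted log2 fold change on the log2(normalized count + 0.5) scale (vertical axis) of PRLR, GHR, STAT5A and STAT5B in the 6 comparisons of time points in cows 2 to 4 (horizontal axis), with unadjusted 95% intervals from limma. PRLR at 12 h against 0 h is the largest, at 1.08 (0.39 to 1.77), and the intervals of STAT5A and STAT5B include 0 in all 6 comparisons.

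Genes at a like level give the scale of what the test could call. Of 1218 other genes with a mean within 1.5-fold of that of PRLR, 14 (1.15%) passed at 12 h against 0 h, the smallest with a log2 fold change of 0.976 in size. Of 1515 other genes with a mean within 1.5-fold of that of STAT5B, 28 (1.85%) passed, the smallest at 1.49. The corresponding counts were 15 of 1314 (1.14%) for STAT5A and 21 of 1058 (1.98%) for GHR. All 4 genes entered the test, which took every gene with a read in cows 2 to 4. Summed over the 15 libraries, PRLR (4.61), STAT5A (4.96) and STAT5B (26.9) reached a total of 4 normalized counts, a reading of the filter that the study used, and GHR (2.50) did not. A mean of 10 normalized counts was reached by 2922 genes and by 0 of these 4.

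The pattern most like that of each member over the 12 libraries of cows 2 to 4 was sought among those 2922 genes by Pearson correlation of the log2 values. It was that of ENSBTAG00000000778 for PRLR (r = 0.869), ENSBTAG00000012860 for GHR (r = 0.937), ENSBTAG00000006884 for STAT5A (r = 0.83) and ENSBTAG00000008251 for STAT5B (r = 0.844), none of which could be named. With the libraries of cow 1 added the correlations were 0.644, 0.904, 0.559 and 0.495. They are the highest of many, over libraries that share cows and scaling, and the members' side rests on 0 to 21 reads per library. Among the members themselves the highest correlation over the 12 libraries was that of STAT5A with STAT5B (r = 0.64), and that of PRLR with GHR was 0.068.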

How the data were processed

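The authors trimmed the QuantSeq reads of the mammary biopsies with HTStream, aligned them with STAR (version 2.6.0c, submitters' processing notes) to UMD3.1 with Ensembl annotation, and counted reads per gene. The deposited normalized counts are a signal, CPM times a factor for each library, and how that factor was made is not given in the sources used here. Each value was divided by the worth of 1 read in its library, which gave whole reads (within 0.01) for 100% of values. Library totals ran from 1804120 to 6228132 reads. For a single library a count of 0 was taken to allow up to 3 reads, and summed reads have two-sided exact Poisson intervals, both for counting error only.

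The 4 genes were taken by identifier. The members, lists and tests were chosen with earlier results of these data known. The test was limma (version 3.58.1, R version 4.3.3) with a trended prior on log2(normalized count + 0.5), over 12 libraries (cows 2 to 4) and 13525 genes with a read, with time point as the factor, a within-cow correlation of 0.0179, Benjamini-Hochberg adjustment over all genes and a threshold of 0.05. Libraries of a cow come from the same animal, which pairs the samples. Over 2922 genes, deviations of the libraries of a cow from the mean of their time points had a median correlation of 0.370 and a lowest of 0.209, above 0.1 in 18 of 18 pairs. The log2 ratios were tested by exact permutation within cows. There were 17 alternative settings, 2 of them chosen after seeing the data, among them limma-voom and, on recovered reads with cow as a term, DESeq2 (version 1.42.0) and edgeR (version 4.0.16).

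Named genes were, by rule, the members and the gene most correlated with each. Lists of pathway genes and cell type markers were held by symbol, and with 0 identifiers matched to a symbol they were not analysed here. No sequences were used.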

Additional observations from a re-analysis of the deposited data

Results flagged for a closer look

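At 0, 12 and 24 h, where there are 4 cows, the values of each of the 4 genes were searched for a cow that stood apart by Dixon's criterion at 95%. Of 12 such groups 2 met it, both of GHR. With 3 cows at 0 any read in the other cow meets this criterion, so the rate of 1 in 20 groups that chance gives for continuous values does not apply. At 0 h cow 2 had 0.219 normalized counts of GHR (1 read), against 0 in the other cows. At 24 h cow 1 had 0.335 (2 reads), against 0 in the other cows.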

How the results depend on the processing

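Across the settings run, 378 values of the 4 genes in the 6 comparisons were recomputed, 0 of which passed an adjusted p of 0.05, and 19 had the opposite sign to the value reported. Most of those from DESeq2 had no adjusted p. The adjusted p of PRLR at 12 h against 0 h ranged from 0.0564 (constant of 2) to 0.672 (edgeR). With cow as a fixed replicate block it was 0.0886 for an unmoved log2 fold change of 1.08, and the block changed no call of the 4 genes. The values whose sign turned were as follows, as log2 fold changes. Leaving out a cow at a time gave, at 12 h against 0 h, from -0.11 to 0.43 for STAT5A and from -0.08 to 0.90 for STAT5B, at 24 h from -0.01 to 0.78 for PRLR, from -1.04 to 0.38 for STAT5A and from -0.77 to 0.07 for STAT5B, at 72 h from -0.73 to 0.01 for STAT5A and from -0.84 to 0.38 for STAT5B, and from 24 h to 72 h from -0.53 to 0.17 for PRLR, from -0.69 to 0.32 for STAT5A and from -0.07 to 0.31 for STAT5B. With edgeR STAT5A was -0.05 at 12 h, with cow 1 added GHR was 0.05 at 24 h and STAT5B was -0.03 from 24 h to 72 h, with quantile normalization the last was -0.02, and with limma-voom PRLR was 0.02 from 24 h to 72 h. Without the 0 h library of cow 4, a setting chosen after seeing the data, STAT5A was -0.23 and STAT5B -0.13 at 12 h. The same setting kept the sign and gave STAT5A -0.67 and STAT5B -0.81 at 24 h, and STAT5A -0.92 and STAT5B -0.75 at 72 h. The cause of these shifts was not tested. Over the alternative settings alone, the permutation p of the STAT5A to STAT5B ratio ranged from 0.454 to 0.917 and that of PRLR to GHR from 0.167 to 0.833. With no constant added the ratios could not be computed, because libraries were at 0, and with genes restricted to means of 10 normalized counts or more none of the 4 was tested. The count of genes called moved by over 1.5 times in 33 of the recomputed counts and stayed within it in 69. With edgeR it went from 525 to 907 at 12 h and from 312 to 630 at 24 h against 0 h, and from 0 to 55 at 72 h, from 95 to 538 from 12 h to 24 h, from 490 to 928 from 12 h to 72 h and from 482 to 988 from 24 h to 72 h. Leaving out a cow gave, in the same order, 168 to 203, 78 to 99, 0 to 1, 2 to 14, 180 to 218 and 103 to 176. At 24 h against 0 h all 15 libraries gave 524. At 72 h against 0 h DESeq2 gave 22, the fixed block 3 and all 15 libraries 2. From 12 h to 24 h all 15 libraries gave 325, DESeq2 315, the fixed block 234, means of 10 or more 233, totals of 4 or more 188, limma-voom 176 and a constant of 0.1 gave 143. PRLR, GHR and STAT5A had at most 4 reads in any library, and so few reads limit the precision of their values.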
